A study of Arabidopsis thaliana with 7 samples.

Results

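A set of 10 Arabidopsis thaliana genes of iron storage and of the iron-deficiency response was compared between wild type (WT) and the glk1 glk2 double mutant. They were chosen by gene identifier, with earlier results of these data known, and all 10 were found among the 27655 rows of the expression table. They were the ferritins FER1 (AT5G01600), FER3 (AT3G56090) and FER4 (AT2G40300), and the IRON MAN (IMA) peptide genes IMA1 (AT1G47400), IMA2 (AT1G47395) and IMA3 (AT2G30766). The others were the transcription factor genes bHLH38 (AT3G56970) and bHLH39 (AT3G56980) and the uptake genes IRT1 (AT4G19690) and FRO2 (AT1G01580). The data were total RNA libraries of whole Col-0 seedlings, 12 days old, grown on 1/2 MS in long days at 16 °C and collected at ZT4, which is 4 h after lights on. There were 3 WT libraries and 4 glk1 glk2 libraries, and WT and mutant plants shared the ecotype, medium, temperature and time of collection. Values are TPM, the transcript abundance per length scaled to 1000000 in each library, so they can be compared between genes but keep no read depth. The labels do not state whether the replicates were grown separately, and p-values therefore refer to the spread among 7 libraries, possibly a technical one. Seedlings hold roots and shoots, and in such bulk RNA fewer cells of a type and less RNA per cell cannot be told apart.

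The GLK1 and GLK2 proteins are transcription factors that promote the building of chloroplasts. Their own transcripts were lower but present in the mutant: GLK1 was 191 ± 10.4 TPM in WT (SD, n = 3) and 51.7 ± 2.93 TPM in the mutant (SD, n = 4), and GLK2 158 ± 2.85 and 50.6 ± 3.49 TPM. Iron enters Arabidopsis roots after FRO2 reduces it at the root surface and IRT1 carries it across the membrane. bHLH38 and bHLH39 pair with the factor FIT to switch on these uptake genes, and IMA peptides keep the iron-sensing ubiquitin ligase BTS from removing the regulators above them. Ferritins are plastid proteins that store iron as a mineral core. Ferritin transcripts are known to accumulate when iron is in excess, and IMA, bHLH38, bHLH39, IRT1 and FRO2 transcripts when iron is short.

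The ferritin genes share a short control sequence, and FER1 carries a further one, which is why their upstream stretches are given here, read from the RefSeq genome of build TAIR10.1. The 300 bases before each start codon were searched on both strands. The first set shows the G-box, CACGTG, in capitals, at 143 bases before the start codon in FER1, 127 in FER3, 149 in FER4 and 143 in FER2, the ferritin gene known from seeds. In FER1 and FER2 the box lies between the annotated gene start and the start codon, and in FER3 and FER4 upstream of the annotated gene. Introns were not looked for.

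FER1, chr5:229720-229749, minus strand: atatccaccctcCACGTGgatctcaatcca
FER3, chr3:20816094-20816123, minus strand: atcgtatccatcCACGTGtcaacaatccac
FER4, chr2:16833346-16833375, minus strand: atctcgtacgtaCACGTGtctctcatccgc
FER2, chr3:3463496-3463525, plus strand: ttctcctctttcCACGTGtccaacaaacag

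All 4 ferritin genes held the box, which 6.28% of 27443 protein-coding genes have in such a window. Among the 10 genes of the comparison 5 had it, IMA3 (223 bases before the start codon) and bHLH38 (248) being the other two. The next stretch also lies between the annotated gene start and the start codon of FER1. In capitals it holds the iron-dependent regulatory sequence (IDRS), an element described in FER1 for keeping the gene low when iron is short. It was searched with any base allowed at 2 of its positions and lies 190 bases before the FER1 start codon. Its letters occurred in the window of 1 gene of the 27443, FER1 itself (0.00364%). The last stretch shows in capitals P1BS (searched as GNATATNC), the site known to be bound by the phosphate-starvation factor PHR1, 227 bases before the FER1 start codon. Of all protein-coding genes, 5.22% had a P1BS match in the window, and of the 10 genes FER1 and FRO2 did, FRO2 at 107 and 66 bases before its start codon. A match is a description of the letters and not of binding.

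FER1 IDRS, chr5:229763-229792, minus strand: ggatgtagCACGAGGCCGCCACacgcccct
FER1 P1BS, chr5:229803-229832, minus strand: taacgtggatcGAATATCCtcacgttcaca

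The IMA genes encode very small peptides whose conserved acidic end is what they are known for, and IMA1 and IMA2 are near copies, so their whole coding sequences are shown. Capitals mark the last 18 codons, stop codon included. IMA1 and IMA2 share 136 of 153 bases (88.9%), with the last 55 bases identical, and lie 1876 bases apart on chromosome 1. Within the capitals, 5 codons in IMA1, 5 in IMA2 and 7 in IMA3 are GAT or GAC, the codons for the acidic residue aspartate.

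IMA1, chr1:17385818-17385970, plus strand: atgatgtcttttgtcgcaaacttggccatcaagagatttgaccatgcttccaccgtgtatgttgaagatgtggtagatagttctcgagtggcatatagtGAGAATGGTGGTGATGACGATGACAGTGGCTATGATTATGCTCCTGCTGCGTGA
IMA2, chr1:17383117-17383269, plus strand: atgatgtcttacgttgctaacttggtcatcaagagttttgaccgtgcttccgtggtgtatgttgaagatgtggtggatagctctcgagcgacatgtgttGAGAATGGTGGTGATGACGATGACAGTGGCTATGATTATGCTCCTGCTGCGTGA
IMA3, chr2:13108068-13108211, plus strand: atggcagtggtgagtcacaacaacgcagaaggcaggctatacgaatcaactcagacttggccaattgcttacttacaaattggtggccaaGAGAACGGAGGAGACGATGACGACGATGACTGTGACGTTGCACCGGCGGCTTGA

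FER1 rose and IMA3 fell in glk1 glk2, while FER3, FER4, IRT1 and FRO2 did not pass the test. IMA2 was also called lower, but it entered the test through its WT libraries alone, no mutant library reaching 1 TPM, so its direction was built into its being tested. Genes with at least 1 TPM in at least 3 of the 7 libraries were tested, which were 19127 genes and 7 of the 10 described here. IMA1, bHLH38 and bHLH39 were below that limit. Here "rose" and "fell" mean a limma adjusted p under 0.05 in the same direction with TPM as deposited and after scaling by trimmed means of M values (TMM). The TMM step matters because TPM has a fixed sum: the median log2 fold change (mutant minus WT) of all tested genes was 0.33 in TPM and 0.01 after TMM scaling. With both scalings 3.20% of tested genes were called higher and 2.53% lower, beside 1 (FER1) and 2 (IMA3 and IMA2) of the 7. As the genes were chosen with earlier results known, such shares give a scale and not a test. With a filter on the mean, at least 5 TPM, IMA3 was the 1 gene of the set called lower, and IMA2 was not tested. In TPM alone 63.0% of genes were called higher and 2.56% lower, beside 3 and 2 of the 7. After TMM scaling 3.20% were called higher and 4.96% lower, beside 1 and 2. The median log2 fold change of the 7 was -0.31 in TPM and -0.52 after TMM scaling.

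FER1, the main ferritin of leaves, had 259, 327 and 349 TPM in the WT libraries and 576, 663, 942 and 526 TPM in the mutant libraries. Every mutant library lay above every WT library, also after TMM scaling, and mutant replicate 3 was the highest. The means were 312 ± 47.2 TPM (SD, n = 3) and 677 ± 186 TPM (SD, n = 4), a ratio of 2.17. On the log2(TPM + 1) scale the fold change was 1.09 ± 0.19 (SE) with a limma adjusted p of 0.0016. After TMM scaling it was 0.73 ± 0.19 (95% interval 0.30 to 1.16) with an adjusted p of 0.0483, and 0.465% of tested genes had a higher value. By mean TPM FER1 ranked 340th of the tested genes in WT and 155th in the mutant. The call was close to its threshold. The larger of the adjusted p values from both scalings was 0.174, 0.141 and 0.0755 without WT replicates 1, 2 and 3, and 0.0743 and 0.0911 without mutant replicates 1 and 2, while the call held without mutant replicate 3 or 4.

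FER3, a second plastid ferritin of vegetative tissue, had 35.1, 42.4 and 40.2 TPM in WT and 56.6, 54.6, 63.5 and 53.5 TPM in the mutant. The mutant libraries were all above the WT libraries in TPM, and the groups overlapped after TMM scaling. The log2 fold change was 0.53 ± 0.08 (SE, limma adjusted p = 0.0012) in TPM and 0.17 ± 0.08 (95% interval -0.0041 to 0.35, adjusted p = 0.214) after scaling. FER3 was thus not called.

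FER4, found in plastids and also known from mitochondria, had 32.2, 39.3 and 40.0 TPM in WT and 47.7, 47.5, 52.7 and 40.3 TPM in the mutant. The lowest mutant library, replicate 4, was just above the highest WT library in TPM, and after TMM scaling the groups overlapped. Its log2 fold change was 0.33 ± 0.11 (SE, limma adjusted p = 0.0214) in TPM, the median of all genes being the same 0.33. After scaling it was -0.02 ± 0.11 (95% interval -0.26 to 0.22, adjusted p = 0.928), so the direction turned with the scaling. FER2, low in seedlings, had 3.54, 4.14 and 2.87 TPM in WT and 4.52, 5.60, 6.73 and 5.37 TPM in the mutant, with a log2 fold change of 0.54 (limma adjusted p = 0.0090) in TPM and 0.24 (adjusted p = 0.290) after scaling.

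The 3 ferritins had their lowest WT value in replicate 1 and their highest mutant value in replicate 3. Their proportions also differed between groups, and these ratios within a library do not depend on the scaling. FER1 made up 79.3 to 81.3% of the summed FER1, FER3 and FER4 TPM in WT and 84.7 to 89.0% in the mutant, without overlap. The ratio of FER1 to FER4 was 8.03 to 8.71 in WT and 12.1 to 17.8 in the mutant, and that of FER1 to FER3 was 7.36 to 8.67 and 9.83 to 14.8. The summed TPM was 326 to 429 in WT and 620 to 1060 in the mutant.

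**Figure D1:**
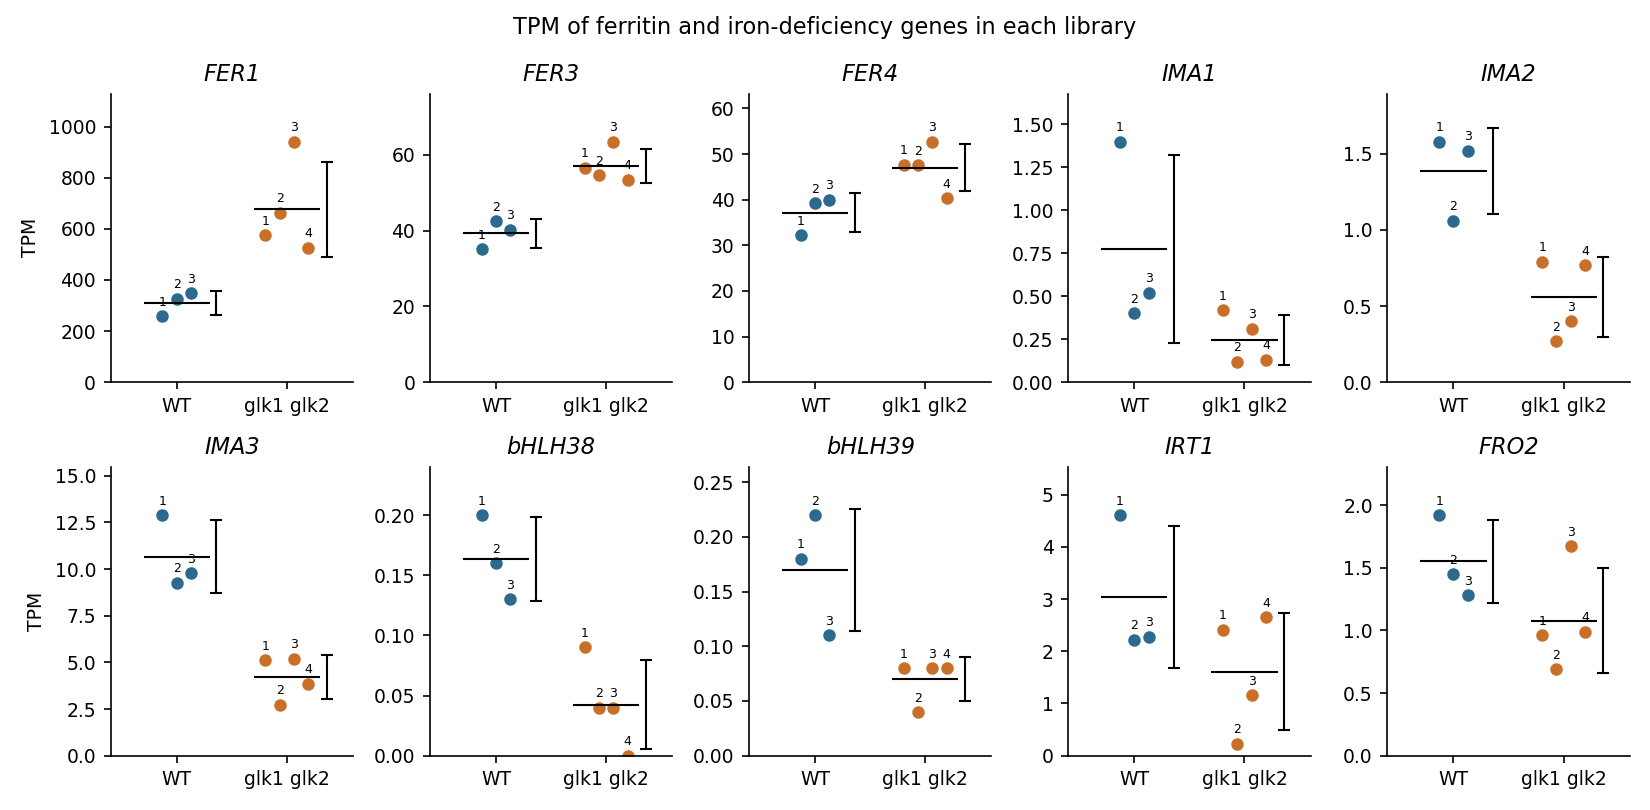
TPM (vertical axes, linear, starting at 0) of each of the 10 genes in 3 WT and 4 glk1 glk2 libraries; points are libraries numbered by replicate, lines are group means and bars are SDs. FER1 lies between 259 and 349 TPM in WT and between 526 and 942 TPM in the mutant, whereas IMA3 lies between 9.27 and 12.9 TPM in WT and between 2.72 and 5.19 TPM in the mutant.

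IMA3, the most abundant IMA transcript in these seedlings, had 12.9, 9.27 and 9.79 TPM in WT and 5.13, 2.72, 5.19 and 3.86 TPM in the mutant. All mutant libraries were below all WT libraries. The means were 10.7 ± 1.96 TPM (SD, n = 3) and 4.23 ± 1.18 TPM (SD, n = 4), so the mutant level was 39.7% of WT. On the log2 scale IMA3 changed by -1.17 ± 0.19 (SE, limma adjusted p = 0.0012) in TPM and -1.49 ± 0.17 (95% interval -1.89 to -1.09, adjusted p = 0.0012) after TMM scaling. Of the tested genes 0.507% had a lower scaled value. The call held without any single library.

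IMA2 had 1.58, 1.06 and 1.52 TPM in WT and 0.79, 0.27, 0.40 and 0.77 TPM in the mutant. The groups did not overlap, and the mutant mean was 40.2% of that of WT, 0.56 ± 0.26 (SD, n = 4) against 1.39 ± 0.28 TPM (SD, n = 3). In TPM the log2 fold change was -0.62 ± 0.17 (SE, limma adjusted p = 0.0103) and -0.80 ± 0.16 (adjusted p = 0.0191) after scaling. As its 3 WT libraries alone carried IMA2 past the filter on low values, the call adds nothing to these values. Without any WT library it fell under the filter, and with no filter it was still called lower.

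IMA1, not tested across genes, had 1.40, 0.40 and 0.52 TPM in WT and 0.42, 0.12, 0.31 and 0.13 TPM in the mutant. WT replicate 1 stood high and mutant replicate 1 was just above WT replicate 2, so the groups overlapped in TPM, but not after TMM scaling. The exact two-sided permutation p for the difference of means was 0.0571 in TPM and 0.0286 after scaling, the latter being the smallest that 3 against 4 libraries allow. The mutant mean was 31.7% of WT. As the coding sequences show, IMA1 and IMA2 have a common end. Of all 50-base stretches of the gene, 98.6% in IMA1 and 98.7% in IMA2 occur once in the genome, so a small part of their reads could be assigned to either; the treatment of such reads is not given in the sources used here.

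The IMA genes held similar proportions in both groups. IMA3 gave 81.2 to 86.4% of the summed IMA TPM in WT and 80.9 to 88.0% in the mutant. The sum was 10.7 to 15.9 TPM in WT and 3.11 to 6.34 TPM in the mutant. Within a library FER1 exceeded IMA3 by a factor of 20.1 to 35.6 in WT and 112 to 244 in the mutant, a ratio that no scaling alters.

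**Figure D2:**
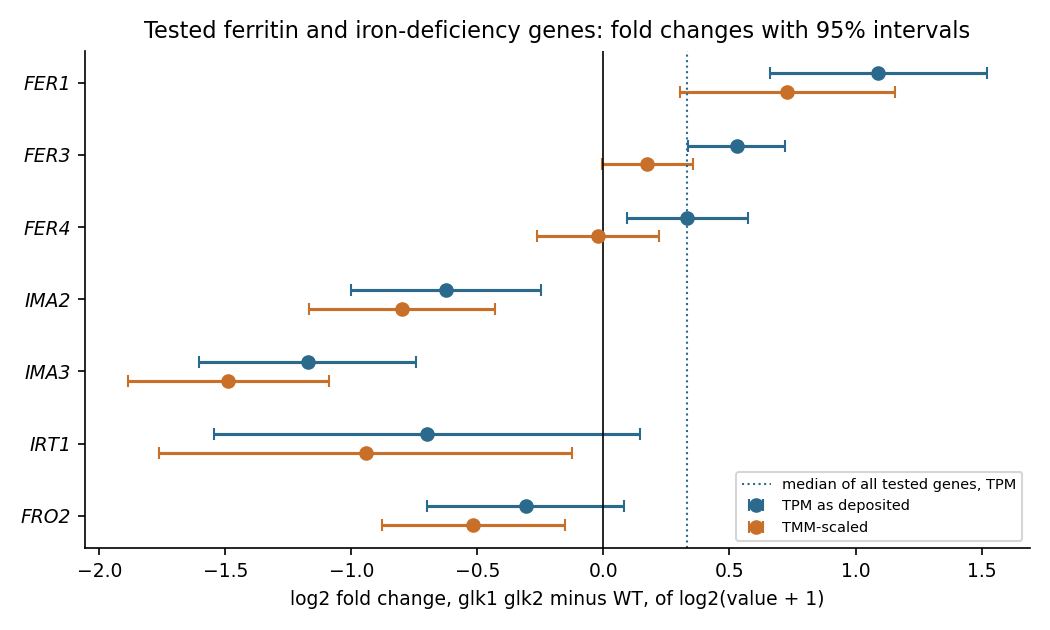
Log2 fold change (horizontal axis, mutant minus WT, of log2(value + 1)) of the 7 tested genes in TPM and after TMM scaling; points are limma estimates, bars 95% intervals per gene, not adjusted for the number of genes, and the dotted line the median of all tested genes in TPM, 0.33. The scaled interval lies above 0 for FER1 (0.30 to 1.16) and below 0 for IMA3 (-1.89 to -1.09), and includes 0 for FER3 and FER4.

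bHLH38 and bHLH39, neighbours 1144 bases apart on chromosome 3, were near the lower end of the table, below 1 TPM in every library. bHLH38 had 0.20, 0.16 and 0.13 TPM in WT and 0.09, 0.04, 0.04 and 0 TPM in the mutant. bHLH39 had 0.18, 0.22 and 0.11 TPM in WT and 0.08, 0.04, 0.08 and 0.08 TPM in the mutant. In both genes every mutant library was below every WT library, with an exact permutation p of 0.0286 each, two-sided, the smallest the design allows. At 2 decimals these values move in coarse steps, and the number of reads behind them is unknown. Fitted with no filter on low values, bHLH38 was called lower (limma adjusted p = 0.0221 in TPM and 0.0486 after scaling), while bHLH39 was not (0.0509 and 0.0857).

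The other 2 genes of the same subgroup, Ib, were also untested, and their values are given after having been seen. bHLH101 had 1.98, 0.89 and 0.71 TPM in WT and 0.39, 0.21, 0.22 and 0.14 TPM in the mutant, without overlap (exact permutation p = 0.0286). bHLH100 had a WT mean of 0.067 TPM and a mutant mean of 0.02 TPM.

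IRT1, the main iron importer of the root epidermis, had 4.61, 2.22 and 2.28 TPM in WT and 2.41, 0.23, 1.16 and 2.65 TPM in the mutant. Mutant replicates 1 and 4 were above WT replicates 2 and 3, so the groups overlapped, and mutant replicate 2 stood lowest. The log2 fold change was -0.70 ± 0.37 (SE, 95% interval -1.55 to 0.14, limma adjusted p = 0.123) in TPM and -0.94 ± 0.36 (95% interval -1.76 to -0.12, adjusted p = 0.152) after scaling, so IRT1 was not called. The scaled interval, not adjusted for the number of genes, lay below 0.

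FRO2, the ferric-chelate reductase that works with IRT1, had 1.92, 1.45 and 1.28 TPM in WT and 0.96, 0.69, 1.67 and 0.99 TPM in the mutant. Mutant replicate 3 lay within the WT range and the other mutant libraries below it. The log2 fold change was -0.31 ± 0.17 (SE, 95% interval -0.70 to 0.082, limma adjusted p = 0.140) in TPM and -0.52 ± 0.16 (95% interval -0.88 to -0.15, adjusted p = 0.0869) after scaling, where the unadjusted interval lay below 0. FRO2 was not called with all libraries, and was called lower without mutant replicate 3 (limma adjusted p = 0.0285). The mutant values left there, 0.96, 0.69 and 0.99 TPM, were all below 1 TPM. FRO2 was then tested through its WT libraries alone, so the direction of that call was built in.

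All 7 iron-deficiency genes of the chosen set, from IMA1 to FRO2, had lower means in the mutant. In TPM 4 of the 7 had no overlap between groups, 2 of them tested, where 2.54% of tested genes had none in that direction. After TMM scaling all 7 had none, 4 of them tested, with a background of 11.7%. IMA2 is among the tested genes in both counts. It was tested through its WT libraries alone, no mutant library reaching 1 TPM. Its lack of overlap was thus built in and adds nothing beside these backgrounds. FRO2, in the scaled count, also passed the filter through its WT libraries. In the mutant only replicate 3 reached 1 TPM (1.67 TPM), so the filter favoured the direction of FRO2 too. FER1 was the 1 ferritin without overlap after scaling, with a background of 12.1%, and in TPM all 3 ferritins had none, with a background of 62.8%. The genes were chosen with earlier results known, so these backgrounds too are a scale and not a test. Within WT, replicate 1 was highest in 6 of the 7 iron-deficiency genes and lowest in all 3 ferritins. Within the mutant, replicate 2 was lowest in 6 of the 7. Further genes of iron uptake and coumarin secretion, named after their values were seen, went in both directions. Scaled log2 fold changes were 0.15 (AHA2), 0.11 (FIT), 0.23 (IRT2) and -0.33 (NRAMP1) for the uptake genes. For the tested coumarin genes they were 0.27 (F6'H1), 0.35 (PDR9) and 0.06 (BGLU42). Untested, CYP82C4 averaged 0.25 TPM in the mutant against 0.50 in WT, and S8H 0.073 against 0.05. None of these genes was called.

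IRT1 and FRO2 are known from roots, so the root content of the libraries is given beside them. The summed level of 18 root marker genes (root hair, endodermis, root tip and root aquaporin genes) was 288, 228 and 132 TPM in WT and 311, 282, 258 and 429 TPM in the mutant. WT replicate 3 was the lowest and mutant replicate 4 the highest, and the groups overlapped. Of 17 tested root markers none was called with both scalings, 6 were called higher in TPM alone and 0 after TMM scaling. Over all tested genes 63.0% were called higher in TPM and 3.20% after TMM scaling. With both scalings 3.20% were called higher and 2.53% lower. Per 100 TPM of root markers IRT1 was at 0.974 to 1.72 TPM in WT and 0.0815 to 0.774 TPM in the mutant, without overlap, and FRO2 at 0.636 to 0.967 and 0.231 to 0.648 TPM, with overlap. IRT1 itself overlapped in TPM, and the sum it is divided by here was higher on average in the mutant. The summed level of 9 leaf markers was 30600 to 33800 TPM in WT and 32100 to 36200 TPM in the mutant. The part of root and leaf content in the results was not tested.

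**Figure D3:**
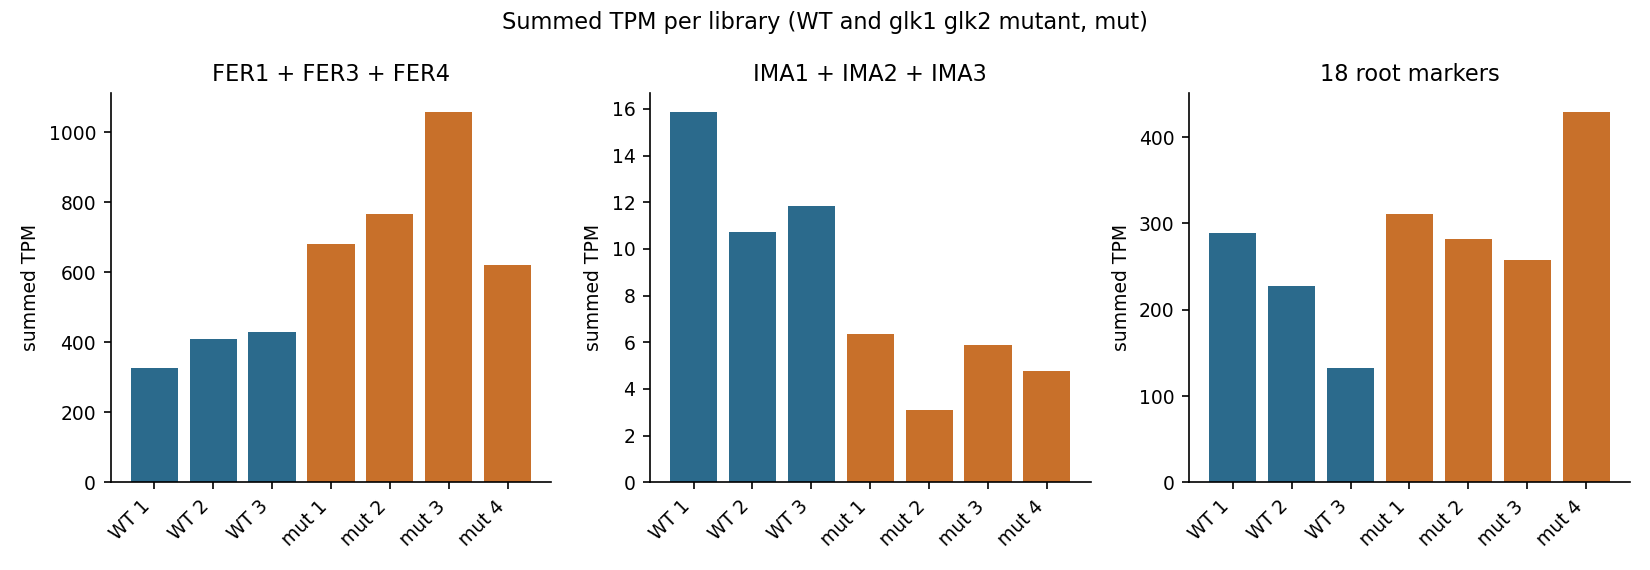
Summed TPM (vertical axes, linear, starting at 0) of FER1, FER3 and FER4, of the 3 IMA genes and of 18 root marker genes, 1 bar per library. The ferritin sums (326 to 429 TPM in WT, 620 to 1060 TPM in the mutant) and the IMA sums (10.7 to 15.9 and 3.11 to 6.34 TPM) separate the groups, and the root marker sums (132 to 288 and 258 to 429 TPM) overlap.

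Around these 10 genes, 71 further genes of iron and copper handling were listed, of which 60 were tested. With both scalings 2 were called higher, 1 lower and 57 not, where 3.20% of all tested genes were called higher and 2.53% lower. These counts are near the shares over all genes. In TPM alone 34 were called higher and 1 lower, beside 63.0% and 2.56% of all tested genes. After TMM scaling 2 were called higher and 5 lower, beside 3.20% and 4.96%. The median log2 fold change of the 60 was 0.34 in TPM and -0.02 after scaling, next to 0.33 and 0.01 for all tested genes. The calls described below are thus those of single genes.

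VTL5, a member of the vacuolar iron transporter-like family, was the gene called lower. It had 10.2, 11.6 and 12.2 TPM in WT and 7.54, 4.43, 8.98 and 6.15 TPM in the mutant, without overlap. Its log2 fold change was -0.70 ± 0.19 (SE, limma adjusted p = 0.0099) in TPM and -1.03 ± 0.17 (adjusted p = 0.0067) after scaling. Of the 8 vacuolar genes listed 5 were tested, and VTL5 was the 1 called.

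SUFE1, which activates the plastid cysteine desulfurase that supplies sulfur for iron-sulfur clusters, rose. It had 2.93, 3.43 and 3.58 TPM in WT and 8.58, 12.97, 10.3 and 7.70 TPM in the mutant, every mutant library being well above WT. In TPM the log2 fold change was 1.32 ± 0.16 (SE, limma adjusted p = 4.3e-04) and 1.02 ± 0.17 (adjusted p = 0.0069) after scaling. The other 9 genes of plastid iron-sulfur assembly, among them those for the scaffold proteins, were not called.

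FRO5, a metal reductase known to respond to low copper, rose as well. It had 5.71, 4.18 and 1.99 TPM in WT and 10.4, 9.77, 11.9 and 18.2 TPM in the mutant. The groups did not overlap, and mutant replicate 4 and WT replicate 3 were the extremes, as they were for the summed root markers, whose part in this result was not tested. The log2 fold change was 1.49 ± 0.28 (SE, limma adjusted p = 0.0023) in TPM and 1.18 ± 0.28 (adjusted p = 0.0362) after scaling. The larger adjusted p was 0.108 and 0.0781 without WT replicates 2 and 3 and 0.0664, 0.0539 and 0.0611 without mutant replicates 1, 2 and 4. The other 8 copper genes were not called.

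None of the 9 tested genes of iron sensing was called. The one with the smallest p in TPM was ILR3, a bHLH factor upstream of the Ib genes, with means of 119 TPM in WT and 151 TPM in glk1 glk2 and a log2 fold change of 0.35 (limma adjusted p = 8.9e-04) in TPM and -0.01 (adjusted p = 0.916) after scaling. The ligase gene BTS was at 17.9 and 20.8 TPM, with a log2 fold change of 0.20 (limma adjusted p = 0.122) in TPM and -0.15 (adjusted p = 0.317) after scaling. FIT, the partner of bHLH38 and bHLH39, was at 3.08 TPM on average in WT and at 4.46 TPM in glk1 glk2, with a scaled log2 fold change of 0.11 (limma adjusted p = 0.759). BTS and FIT are named after their values were seen, for their roles beside the IMA and bHLH genes.

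The remaining lists gave no call with both scalings. Among the 4 further uptake genes AHA2, a plasma membrane proton pump, was at a mean of 109.5 TPM in WT and 159.6 TPM in glk1 glk2, with a scaled log2 fold change of 0.15 (limma adjusted p = 0.624). Of 3 tested genes of coumarin secretion BGLU42, a glucosidase that frees coumarins, was at 9.04 to 10.9 TPM in WT and 12.8 to 14.8 TPM in the mutant (scaled log2 fold change 0.06, limma adjusted p = 0.698). Of 12 tested transport and nicotianamine genes IRT3, a zinc and iron transporter, was at 9.81 to 10.3 TPM and 11.96 to 14.3 TPM (scaled log2 fold change 0.03, limma adjusted p = 0.814). Of 7 plastid transport genes FRO7, the chloroplast ferric reductase, was at 109 and 198 TPM. Its log2 fold change was 0.83 (limma adjusted p = 8.3e-04) in TPM and 0.47 (adjusted p = 0.0619) after scaling. Without mutant replicate 3 FRO7 was called higher (limma adjusted p = 0.0030). Without any other single library it was not called, the larger limma adjusted p being 0.0906 to 0.212.

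Of these 60 genes, 4 were called lower after TMM scaling alone, and they are named after their values were seen. The scaled log2 fold change was -0.45 (limma adjusted p = 0.0109) for FRO3, a ferric reductase of the vasculature and mitochondria, and -0.43 (adjusted p = 0.0019) for YSL6, a plastid envelope transporter. It was -0.36 (limma adjusted p = 0.0092) for IREG3, a plastid member of the ferroportin family, and -0.36 (adjusted p = 0.0361) for NFU3, a plastid iron-sulfur carrier. In TPM as deposited their log2 fold changes were -0.11, -0.078, -0.00015 and -0.0067 in that order, and none passed the test.

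Of 14691 tested genes with a mean of at least 5 TPM, those whose scaled log2 values ran closest to FER1 over the 7 libraries were APR3, APL3 and SEX4, with root mean square differences of 0.112, 0.113 and 0.115. Their direction was built in, as they were picked for likeness to FER1 in the same libraries, and a call adds nothing to it. APR3, an enzyme of sulfate reduction, rose from 85.5 to 188 TPM, and SEX4, a phosphatase of starch breakdown, from 23.5 to 51.1 TPM. Both calls depended on single libraries: the larger adjusted p of APR3 was 0.0767 and 0.0794 without WT replicates 1 and 2, and that of SEX4 was 0.132, 0.155 and 0.0727 without WT replicates 1, 2 and 3 and 0.0769 without mutant replicate 2. APL3, a subunit of the enzyme that makes the starch precursor, was at 15.8 and 35.1 TPM and was not called. For IMA1, whose log2(value + 1) spans little, the closest were AT4G30450, AT4G30410 and HFR1 (0.147, 0.166 and 0.173), none of them called. The likeness is a description over 7 libraries.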

How the data were processed

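The authors deposited 1 table of TPM values for 27655 genes and 7 libraries. Per the submitters' processing notes, TopHat2, Cufflinks and TAIR10 were used (no versions). Which gene models were counted, on which strand, and how shared reads were treated is not given in the sources used here. The columns sum to 1000000, so depth is unknown and no counting interval is given. GLK1 and GLK2 checked the labels.

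The column of WT replicate 1 follows the alphabetical order of the identifiers, unlike the other columns, and was read so. In the 5606 rows affected, 3 of them for FER3, bHLH38 and bHLH39, its correlation across genes with the mean of the other libraries was 0.055 as deposited and 0.995 in that order.

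Values were log2(TPM + 1), tested with limma 3.58.1 in R 4.3.3 (trended eBayes, two-sided, Benjamini-Hochberg over all 19127 tested genes), in TPM and after TMM scaling computed on TPM (30% and 5% trims). Fold changes on this scale understate low genes. Exact permutation tests used the 35 divisions of 7 libraries into 3 and 4. The fit was tested on simulated data in which most genes were unchanged and the changed genes were not low ones. That simulation covers neither the shift in TPM seen here nor changes in low genes. Sequences, names and positions come from RefSeq TAIR10.1, matched by identifier (27445 of the table, all 10 of the comparison). The genes and the lists were chosen with earlier results of these data known. Named besides the 10 were, per list, up to 5 called genes or the one with the smallest TPM p, GLK1, GLK2, and the 3 genes closest to FER1 and to IMA1; others are marked in the text.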

Additional observations from a re-analysis of the deposited data

Results flagged for a closer look

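For bHLH39 in the mutant, replicate 2 had 0.04 TPM while the other 3 libraries had 0.08 TPM each, so its gap to the nearest value was the whole range of the group and passed Dixon's 95% critical value for 4 samples. Values this low in a table of 2 decimals move in coarse steps, and chance alone marks a small share of such groups. No other of the 10 genes was so marked in the mutant, and WT, with 3 libraries, was not examined in this way.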

How the results depend on the processing

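IMA3 kept its call and direction in all 21 alternatives, with a log2 fold change of -1.49 to -0.76. FER1 kept its direction in all 21 (0.73 to 1.20) and lost its call in 10. Genes of the 10 called higher, 1 as reported, numbered 3 with TPM alone and 0 with no filter, with no trend, at a threshold of 0.01, with WT replicate 1 as deposited and with its affected rows missing, and 0 to 1 with 1 library left out. Genes called lower, 2 as reported, numbered 1 with a mean TPM of at least 5, at a threshold of 0.01 and with WT replicate 1 as deposited, and 1 to 3 with 1 library left out. FER1 then had adjusted p values of 0.0756 with no filter, 0.0619 with no trend, 0.140 as deposited and 0.0528 with missing rows, and IMA2 0.0533 as deposited. The cause was not tested. FRO2 was called lower with array weights (limma adjusted p = 0.0194). It was also called lower without mutant replicate 3, where it was tested through its WT libraries alone. Signs turned for FER4 with TMM alone (-0.0206) and quantile normalization (-0.0107), for ILR3 with TMM alone (-0.0131), for BTS with TMM alone (-0.149) and quantile normalization (-0.15), and for FER2 with WT replicate 1 as deposited (-0.0819). IREG3 and NFU3, both near 0 in TPM, changed sign in TPM with array weights (0.034 and 0.072) and with 1 library left out (-0.0167 to 0.0235 and -0.0398 to 0.0343). With WT replicate 1 as deposited, VTL5, SUFE1, FRO5, APR3 and SEX4 lost their calls (limma adjusted p = 0.124, 0.693, 0.122, 0.0755 and 0.684). VTL5, SUFE1 and SEX4 are in affected rows, and their log2 fold changes moved to -1.33, 0.65 and 0.61 in TPM. Those of FRO5 and APR3 stayed at 1.49 and 1.10. Over all genes, 157 to 12046 were called higher (613 as reported) and 327 to 948 lower (483).

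Whether replicate numbers pair the libraries could not be decided. Same-numbered WT and mutant libraries deviated together at r = 0.0496, 0.174 and 0.0895 across genes, and the other pairs at -0.108 to 0.00849. Each library thus correlated best with its own number, a hint only. With a replicate block over replicates 1 to 3, FER1 was called higher (1 gene) and 3 genes lower, IRT1 being added (log2 fold change -0.90, adjusted p = 0.018, against 0.110 for the same libraries without the block). NFU3 was at 0.0343 in TPM over these libraries with and without the block. Over all genes the block gave 234 higher and 427 lower, against 420 and 449 without it. With 1 library left out no exact test can reach 0.05 at any level of expression, so those values for bHLH38, bHLH39, bHLH101 and IMA1 say nothing of stability. Depth is unknown, and the precision of the low genes with it.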
